A study of Coryphaena hippurus with 32 samples.

Results

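At 24 h post fertilization (hpf), whole mahi-mahi embryos (Coryphaena hippurus, a fast-growing pelagic fish) exposed to slick oil were compared directly with embryos exposed to source oil. The comparison used 6 of the 32 samples of the series, 3 per oil, taken by their labels as 24 hpf slick (replicates 1, 2 and 3) and 24 hpf source oil, labelled "mass" (replicates 10, 11 and 12). The labels give both oils at 1 g/l, and 3 control samples of the same stage at 0 g/l in seawater without oil. Both oils are from the Deepwater Horizon spill. Slick oil was skimmed from the sea surface and is weathered, whereas source oil was not. Each was mixed into seawater at high energy (HEWAF), and freshly fertilized embryos of wild-caught broodstock, with no genetic change, were kept in it without renewal until sampling. Each sample pooled 30 animals, so neither single embryos nor single tissues can be followed. In such whole-embryo RNA, fewer cells of a type and less RNA per cell cannot be told apart. No measured hydrocarbon level was used, and a difference below may come with the dose that reached the embryos or with the kind of oil, which cannot be told apart.

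Polycyclic aromatic hydrocarbons in crude oil bind the aryl hydrocarbon receptor (AhR), which moves to the nucleus, pairs with ARNT and switches on detoxifying enzymes such as CYP1A1. In fish embryos oil is also known to disturb the forming heart, through potassium and calcium currents of heart muscle cells, and other developing organs. At 24 hpf the embryo is still inside its envelope, with the heart and eyes forming.

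Of 7757 genes tested, 17 (0.219%) differed between the oils at an adjusted p below 0.05, in the quasi-likelihood test of edgeR, adjusted by Benjamini-Hochberg over all tested genes. Of these, 3 (0.0387%) were higher in slick, namely CYP1A1, KCNQ1 and MBIP, and 14 (0.18%) were lower. The 3 higher genes differed by 2.48-fold to 2.87-fold, whereas 10 of the 14 lower genes kept over 0.7 of their source level. In all 17 genes the 3 slick and the 3 source values did not overlap, which also held for 952 (12.3%) of all tested genes, with slick above in 5.89% and below in 6.38%. At an unadjusted p below 0.05, 276 genes (3.56%) were nominally higher in slick and 315 (4.06%) lower, 7.62% in all, and 50% of all genes had a log2 change above 0. Values below are normalised counts (counts scaled by TMM to a common library size), errors are SD with n = 3 or the standard error (SE) of a log2 change. The 6 libraries held 1978998 to 2099058 counts over 1 table line per gene, and scaling factors of the 9 libraries of the stage lay between 0.973 and 1.02.

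The number of calls depended on the libraries and on the method. With all libraries, the test of DESeq2 called 2 genes higher and 4 lower. Summing the table lines of each gene left 2 higher and 1 lower. Of the single libraries, source replicate 11 moved the number most. When it was left out, 4 genes remained called, CYP1A1, KCNQ1, CHAC1 and ID 4540, with log2 changes of 1.5, 1.17, -0.61 and -0.60. The other 13 kept their direction without passing, at adjusted p from 0.055 to 0.53. Source replicate 11 was the highest source library in 9 of the 14 lower genes, and slick replicate 3 the lowest slick library in 9 of 14. The same counts were not taken over all tested genes. The SD of log2 values from the rest of the group was 0.233 in source replicate 11 and 0.233 to 0.256 over the 9 libraries of the stage. By a chi-square of the difference over genes, source replicates 11 and 12 were the pair furthest apart within a 24 hpf group. That pair gave 1.97 per degree of freedom, in a range of 1.18 to 1.97. Source replicates 10 and 11 gave 1.32, and 10 and 12 gave 1.52.

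**Figure D1:**
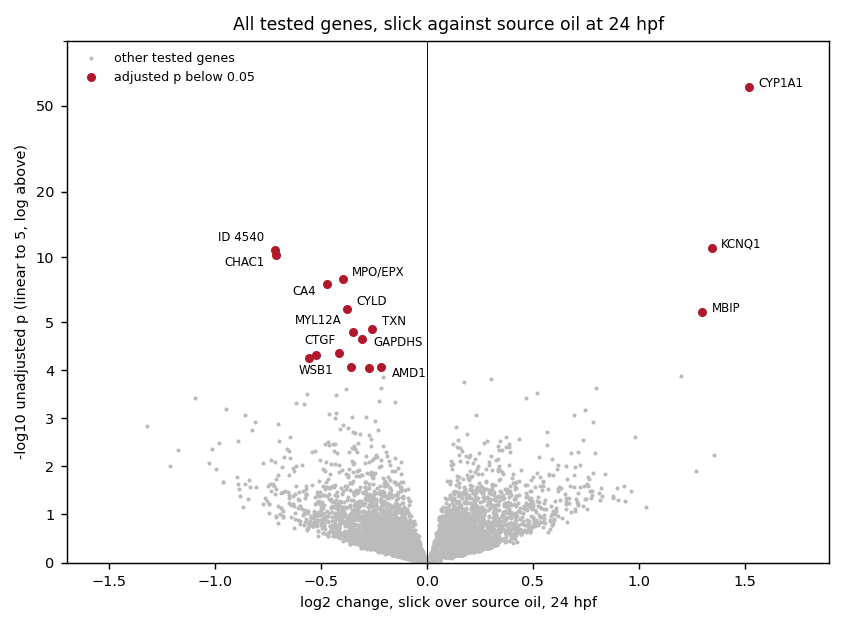
The log2 change of slick over source oil at 24 hpf (x axis) against the -log10 unadjusted p (y axis, linear to 5 and logarithmic above) for all 7757 tested genes. Filled red points are the 17 called genes, not all of which carry a label, and 3 of them lie to the right of 0.

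CYP1A1, the monooxygenase that oxidises polycyclic aromatic hydrocarbons, was the gene with the lowest p. Its normalised counts were 2011, 1928 and 1750 in the slick samples and 708, 644 and 632 in the source samples, beside 84.4, 68.4 and 103 in controls. The 3 groups were far apart, with source between control and slick. Slick exceeded source 2.87-fold (log2 change 1.52 ± 0.05 SE, adjusted p = 1.2e-57). Of the 12 AhR targets listed, 6 had a table line and 4 were tested, and CYP1A1 alone was called between the oils. The list's median log2 change was 0.72, against 0.000082 over all tested genes.

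FOXQ1, a forkhead transcription factor, held 47.4, 36.6 and 49.8 normalised counts in slick, 26.4, 26.7 and 29.5 in source, and 17.8, 23.5 and 15.3 in controls. The groups again stood in the order control, source, slick without overlap, but the 1.62-fold difference between the oils did not pass the test (adjusted p = 0.17). AHRR, a repressor of AhR that is also one of its targets, was read at low counts of 18.4, 14.8 and 18.3 in slick and 6.6, 12.4 and 11.4 in source, without overlap. Its log2 difference of 0.75 had a 95% interval from 0.11 to 1.40 and an adjusted p of 0.61. LPCAT2, a lysophospholipid acyltransferase and the remaining tested target, had 18.9 normalised counts in slick and 22.2 in source (adjusted p = 0.91). Among 6 tested genes of the receptor complex and its partners none was called. HSP90AA1, a chaperone that holds the receptor in the cytosol, had the lowest p of these, with 5825 normalised counts in slick, 5346 in source and 5982 in controls (log2 change 0.12, adjusted p = 0.34).

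KCNQ1 encodes the pore-forming subunit of a voltage-gated potassium channel that carries the slow delayed rectifier current of the heart and also works in ion-transporting epithelia. It read 82.3, 79.2 and 55.9 normalised counts in slick, 29.2, 21.0 and 35.2 in source, and 51.1, 42.7 and 37.8 in controls. Controls lay between the oils, and all slick values were above all control values, which were above all source values. Slick exceeded source 2.54-fold (log2 change 1.35 ± 0.18 SE, adjusted p = 3.7e-08). A second table line of KCNQ1 gave 2.55-fold, although lines of 1 gene can share reads.

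In whole embryos the KCNQ1 counts cannot be assigned to the heart or to another tissue. With all libraries, the other listed genes of heart excitation and contraction gave no call. Of 28 tested genes of calcium handling and cardiac ion channels KCNQ1 alone was called, and the list's median log2 change was 0.01. Members with the next lowest p were ATP1B1, a subunit of the sodium pump (393 in slick, 448 in source, adjusted p = 0.40), and KCNH6, a potassium channel of the ERG family (17.8 and 26.6, adjusted p = 0.62). Of 20 heart development regulators and 13 cardiac sarcomere genes none was called and none had an unadjusted p below 0.05. This depended on the libraries for the sarcomere genes, of which 2 were called higher and 4 were nominally higher without source replicate 12. In that fit 9 of all 7904 tested genes were called higher and 261 were nominally higher. The heart regulators held no call in any alternative tried. KCNQ5, another potassium channel of the KCNQ family, had 24.4 normalised counts in slick and 19.3 in source (adjusted p = 0.83). The summed level of 3 heart markers was 43.5 to 58.1 in slick and 46.8 to 65.7 in source normalised counts, ranges that overlapped. The fourth marker, NPPA, had no line.

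MBIP encodes a protein that binds and inhibits the kinase MAP3K12 and belongs to a histone acetyltransferase complex. Its normalised counts were 31.0, 35.6 and 27.5 in slick, 14.1, 11.5 and 12.4 in source, and 28.9, 19.2 and 32.7 in controls. The source values lay below those of both other groups, which overlapped each other. Slick exceeded source 2.48-fold (log2 change 1.30 ± 0.27 SE, adjusted p = 0.0025), and source was below control at 0.47 of its level (adjusted p = 0.019). Without source replicate 11 the change between the oils was 1.23 and its adjusted p 0.086.

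**Figure D2:**
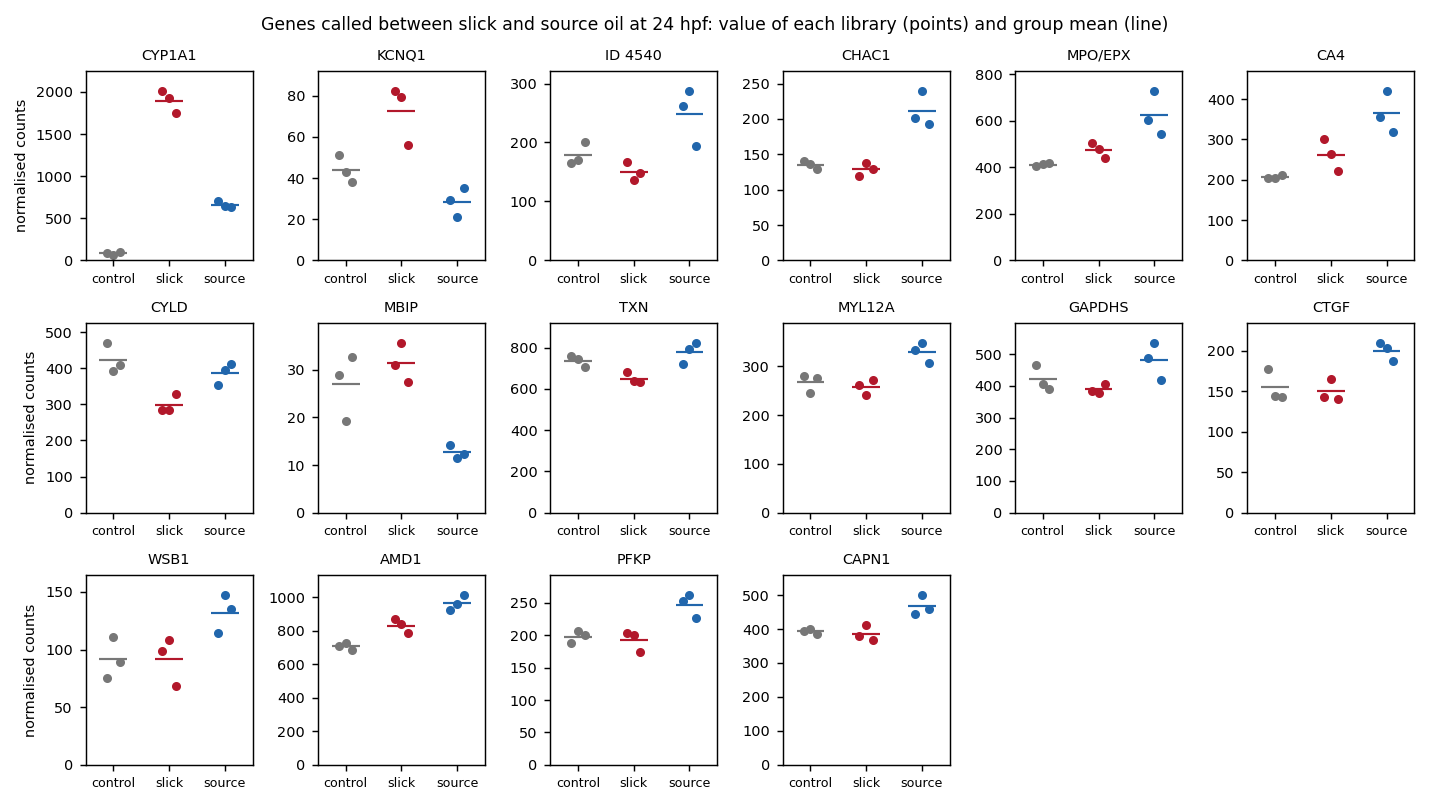
Normalised counts (y axes, from 0) of 16 called genes in each library of control, slick and source at 24 hpf, with points for libraries and lines for group means. Source stands apart from the other groups in most panels. CYP1A1, KCNQ1, CA4, MPO/EPX and AMD1 separate all 3 groups. In CYLD and TXN every slick value lies below both other groups.

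Among the genes lower in slick, the unlabelled human Entrez ID 4540 and CHAC1 had the largest changes. ID 4540 read 167, 137 and 148 normalised counts in slick, 261, 287 and 194 in source, and 164, 170 and 200 in controls (log2 change -0.72 ± 0.10 SE, adjusted p = 4.2e-08). The deposited tables pair no symbol with it, so none of the gene lists, which go by symbol, holds it. Its call was lost in the fit that summed the table lines of each gene. ID 4540 has only 1 distinct line, so its own counts were unchanged in that fit. Slick and control values overlapped, as did control and source values. CHAC1, an enzyme that breaks down glutathione and is induced by the stress factor ATF4, read 119, 138 and 129 in slick, 201, 240 and 192 in source, and 141, 136 and 129 in controls. Slick and control values overlapped, while every source value was higher. The log2 change of slick over source was -0.71 ± 0.10 SE (0.61-fold, adjusted p = 1.1e-07).

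Other ATF4-dependent genes did not pass the test. Of 22 tested genes of ATF4 and amino acid stress, CHAC1 was the 1 called, 12 lay below 0 and the median log2 change was -0.02. At an unadjusted p below 0.05, 4 (CHAC1 included) were nominally lower in slick and 0 higher, against 4.06% and 3.56% of all genes. Leaving out source replicate 11 gave 2 and 0, against 258 and 232 of all 7879 tested genes. PYCR1, an enzyme of proline synthesis, had 22.9 normalised counts in slick and 36.1 in source (adjusted p = 0.36). SLC7A3 and SLC7A1, carriers of basic amino acids, had 25.4 against 35.2 and 21.8 against 30.8 (adjusted p = 0.63 for each). ATF4 itself had 37.9 in slick and 32.3 in source (adjusted p = 0.86). Of 16 tested genes of the unfolded protein response none was called.

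TXN, thioredoxin, which reduces oxidised proteins, was lower in slick at 681, 637 and 632 normalised counts than in source at 719, 792 and 822. Controls at 759, 745 and 707 overlapped source and lay above slick. The difference was small, at 0.836-fold (log2 change -0.26 ± 0.06 SE, adjusted p = 0.012), and the call held in 10 of 17 alternatives. TXN was the 1 called gene among 20 tested glutathione and NRF2 antioxidant genes, of which 10 lay above and 10 below 0. At an unadjusted p below 0.05, 4 (TXN included) were nominally lower in slick and 1 higher, against 4.06% and 3.56% of all genes. Without source replicate 11 these counts were 2 and 0, against 258 and 232 of all 7879 tested genes. The oils did not overlap, slick below, in 5 (25%), against 6.38% of all tested genes, and slick above in 0. TALDO1, transaldolase of the pentose phosphate pathway, had 52.1 ± 10.2 normalised counts in slick and 77.3 ± 6.77 in source (adjusted p = 0.092). PGD, which makes NADPH in the same pathway, had 760 and 823 (adjusted p = 0.63), and PRDX1, a peroxidase, 765 and 702 (adjusted p = 0.62).

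CA4, a membrane carbonic anhydrase that handles carbon dioxide and acid at epithelial surfaces, read 300, 264 and 223 normalised counts in slick and 356, 420 and 318 in source. Controls were tight at 204, 205 and 212, below every oil sample. Slick was 0.719 of source (log2 change -0.47 ± 0.08 SE, adjusted p = 3.9e-05), and without source replicate 11 the change was -0.36 with an adjusted p of 0.086. The 4 other lines of CA4 gave 0.689-fold to 0.922-fold, although lines of 1 gene can share reads. The CA4 call was lost in the fit that summed the table lines of each gene. RHAG, an ammonia channel of red blood cells and, in fish, of the gill, pointed the other way. Its counts were 26.1, 18.8 and 25.4 in slick, 12.2, 4.8 and 13.3 in source, beside 12.7 ± 2.67 in controls. The 2.32-fold difference just missed the threshold (adjusted p = 0.056), and it passed in 8 of the alternatives tried. The summed level of 3 red blood cell markers was 159 to 186 in slick and 147 to 185 in source, with no line for the fourth, HBA1. That sum is mostly GATA1 (110 in slick, 118 in source) and ALAS2 (55.1 and 53.5). It hides HBE1, a globin with too few counts to be tested (3.60 in slick, 0.63 in source, 1.08 in controls).

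The remaining ammonia, urea and ionocyte genes, 18 tested in all, held no other call. Besides CA4 and RHAG, those with an unadjusted p below 0.05 were FOXI1, the master transcription factor of ionocytes (80.1 in slick, 98.2 in source), SLC12A2, a sodium-potassium-chloride cotransporter (661 and 734), SLC4A4, a bicarbonate cotransporter (52.2 and 68.1), SLC14A2, a urea transporter (16.2 and 24.4), and ASS1, a urea cycle enzyme (94.3 and 76.4). Of these, all but ASS1 were nominally lower in slick, at adjusted p from 0.51 to 0.62. With CA4 and RHAG, 5 of the 18 were nominally lower and 2 higher, against 4.06% and 3.56% of all genes. Without source replicate 10 these counts were 2 and 1, against 291 and 292 of all 7886 tested genes. With DESeq2 they were also 2 and 1, against 103 and 78 of 7757.

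Genes whose human namesakes have roles in immunity were also among the lower genes. MPO/EPX is a feature shared by the identifiers of myeloperoxidase and eosinophil peroxidase, enzymes of granulocyte granules, whose lines cannot be told apart here. It read 503, 480 and 439 normalised counts in slick, 602, 728 and 544 in source, and 403, 412 and 417 in controls. The groups stood in the order control, slick, source without overlap, and slick was 0.759 of source (adjusted p = 1.8e-05). CYLD, a deubiquitinase that restrains NF-kappaB signalling, read 284, 284 and 329 in slick, 353, 396 and 412 in source, and 470, 392 and 409 in controls. Source and control overlapped, and slick was below control (0.705-fold, adjusted p = 2.1e-06). The difference between the oils was 0.771-fold (adjusted p = 0.0019). The calls held in 13 of 17 alternatives for CYLD and 14 of 16 for MPO/EPX. Of 12 tested innate immune genes MPO/EPX alone was called, and MEFV, an inflammasome sensor, had 87.0 in slick and 64.6 in source (adjusted p = 0.32).

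PFKP, a phosphofructokinase at the committed step of glycolysis, and GAPDHS, a glyceraldehyde-3-phosphate dehydrogenase paralogue named for its role in human sperm, were both lower in slick. PFKP read 203, 201 and 174 normalised counts in slick, 254, 262 and 227 in source, and 188, 206 and 200.3 in controls (0.779-fold, adjusted p = 0.041). Slick and control overlapped, and source was above both. The PFKP call held in 10 of 17 alternatives. It was lost whenever any single slick library, or source replicate 10 or 11, was left out. GAPDHS read 384, 377 and 405 in slick and 487, 535 and 419 in source (0.809-fold, adjusted p = 0.015), while GAPDH, the main form of the enzyme, had 553 and 538 (adjusted p = 0.94). The GAPDHS call held in 11 of 17 alternatives.

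The other genes of glycolysis and gluconeogenesis lay mostly on the same side of 0 by small amounts. Of 27 tested, which include PFKP but not GAPDHS, PFKP alone was called, 24 (88.9%) had a log2 change below 0, and the median was -0.14. Slick and source did not overlap, slick below, in 11 (40.7%), against 6.38% of all tested genes. HK1, which phosphorylates glucose, had 194 in slick and 233 in source (adjusted p = 0.35), LDHA, which makes lactate, 254 and 300 (adjusted p = 0.40), and GPI, glucose-6-phosphate isomerase, 409 and 452 (adjusted p = 0.63). The 3 genes above 0 were GAPDH and the gluconeogenic enzymes PCK1 (1089 and 979, adjusted p = 0.36) and G6PC (50.4 and 37.4, adjusted p = 0.60). FBP1 (83.4 and 86.8, adjusted p = 0.96) and FBP2 (6.92 and 11.7, adjusted p = 0.68), which are gluconeogenic too, lay below 0. The median stayed between -0.11 and -0.18 in the alternatives tried, being -0.11 with 23 genes below 0 without source replicate 11. Genes of 1 list share the same libraries and are not independent.

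Of 20 tested genes of the hypoxia response, 15 lay below 0 with a median of -0.18 (-0.12 without source replicate 11), and none was called. P4HA1, a collagen prolyl hydroxylase, came nearest, and passed in 5 of the alternatives tried, one of them without source replicate 12. It read 951, 1088 and 996 normalised counts in slick and 1161, 1233 and 1110 in source (0.866-fold, adjusted p = 0.056). Its slick and source groups did not overlap. IGFBP1, a binding protein of insulin-like growth factors, had 51.0 in slick, 70.3 in source and 40.2 in controls (adjusted p = 0.34), and VEGFA, the vessel growth factor, 10.9, 16.2 and 8.85 (adjusted p = 0.72).

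AMD1, the decarboxylase that supplies the aminopropyl groups for polyamines, read 867, 837 and 783 normalised counts in slick, 924, 958 and 1010 in source, and 707, 726 and 685 in controls. Both oils lay above all controls, source more so, and slick was 0.861 of source (adjusted p = 0.041). The AMD1 call held in 7 of 17 alternatives and was lost whenever any single slick or source library was left out. SRM, spermidine synthase, which uses those groups, had nearly equal levels in the oils, 152 in slick and 151 in source against 91.0 in controls (log2 difference between the oils 0.01 ± 0.11 SE, adjusted p = 0.99). No other of the 9 tested polyamine genes was called.

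The last 4 lower genes are linked to the cytoskeleton, matrix and protein turnover. MYL12A, a regulatory light chain of non-muscle myosin, read 261, 242 and 272 in slick and 334, 348 and 307 in source (0.784-fold, adjusted p = 0.012). CTGF, a matrix-associated growth regulator, read 143, 165 and 140.3 in slick and 209, 203 and 187 in source (0.749-fold, adjusted p = 0.028). WSB1, a substrate receptor of a ubiquitin ligase, read 98.7, 108 and 68.1 in slick and 114, 147 and 135 in source (0.693-fold, adjusted p = 0.028). In each, slick overlapped the controls, which had means of 268, 155 and 91.8. The calls of MYL12A, CTGF and WSB1 held in 11, 10 and 11 of 17 alternatives.

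CAPN1, a calcium-dependent protease, read 380, 411 and 369 in slick and 445, 499 and 458 in source (0.827-fold, adjusted p = 0.041). Its call held in 8 of 17 alternatives. Controls, with a mean of 393 ± 7.19, overlapped slick. The related calpains CAPN9 and CAPN2 had 345 against 405 and 809 against 899 (adjusted p = 0.26 and 0.41). ASTL, the hatching enzyme and the only hatching gland marker, had 5968 in slick and 5806 in source (adjusted p = 0.91).

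With all libraries, the lists of growth and protein turnover held no call. Of 44 tested genes of DNA replication and the cell cycle 30 were above 0, with a median of 0.10, and 25 without source replicate 11. At an unadjusted p below 0.05, 7 were nominally higher in slick and 2 lower, against 3.56% and 4.06% of all genes. Without source replicate 11 these counts were 4 and 2, against 232 and 258 of all 7879 tested genes. Slick and source did not overlap, slick above, in 9 (20.5%), against 5.89% of all tested genes, and slick below in 2 (4.55%). RRM2 and RRM1, the subunits of ribonucleotide reductase, had 467 in slick and 398 in source (adjusted p = 0.17) and 625 and 549 (adjusted p = 0.28). Of 28 proteasome genes 24 were above 0 with a median of 0.07, and PSMA1, a core subunit, had the lowest p (369 and 320, adjusted p = 0.40). The oils did not overlap, slick above, in 5 (17.9%) of these genes, and slick below in 0. Of 62 cytosolic ribosomal protein genes 37 were above 0 and 31 without slick replicate 3. The nearest to a call were RPL34 (3057 and 2710, adjusted p = 0.064), which passed in 6 of the alternatives tried, and RPL12, which lay on the other side (659 and 764, adjusted p = 0.078).

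Other developmental and metabolic groups held small differences. Eye development had 3 of 21 tested genes nominally higher in slick at an unadjusted p below 0.05, as had 3.56% of all genes, and none nominally lower. That count was 6 without source replicate 10, against 292 of all 7886 tested genes. The list's median of 0.13 was 0.02 without source replicate 11. The 3 were OTX2, a factor that patterns the forebrain and eye (46.3 in slick, 32.0 in source, 46.0 in controls), the chromatin remodeller CHD7 (542 and 488) and the eye field gene LHX2 (48.3 and 36.1), at adjusted p of 0.41 to 0.62. Of 20 cartilage, bone and matrix genes 14 lay below 0, with a median of -0.04, and 10 without source replicate 12. COL2A1, the main collagen of cartilage, had nearly equal levels (15820 and 15960, adjusted p = 0.97), and the minor collagen COL9A1 had 318 and 359 (adjusted p = 0.59). In one-carbon metabolism MTHFD1, a folate enzyme, had 521 and 611 (adjusted p = 0.11) and GAMT, which makes creatine, 3964 and 4406 (adjusted p = 0.12). Of 39 lists described, 30 held no called gene, 15 had a median above 0 and 24 below. Apart from the AhR targets, list medians lay between -0.18 and 0.13.

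Outside the lists, several genes came near the threshold (adjusted p from 0.059 to 0.12). Nominally higher in slick were EIF3K, a subunit of a translation initiation factor (365 ± 15.4 in slick, 296 ± 46.1 in source), PQLC3 (1.74-fold), COX11, an assembly factor of cytochrome c oxidase (92.5 ± 8.29 and 64.6 ± 8.74), and BANF1, a chromatin-binding protein of the nuclear envelope (112 ± 17.2 and 80.4 ± 5.28). Nominally lower were PTPN13, a tyrosine phosphatase (138 ± 4.26 and 179 ± 11.7), TFAP2C, an ectodermal transcription factor (97.5 ± 8.16 and 131 ± 8.21), and RAPGEF6, an activator of Rap GTPases (38.3 ± 2.52 and 58.9 ± 5.24).

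**Figure D3:**
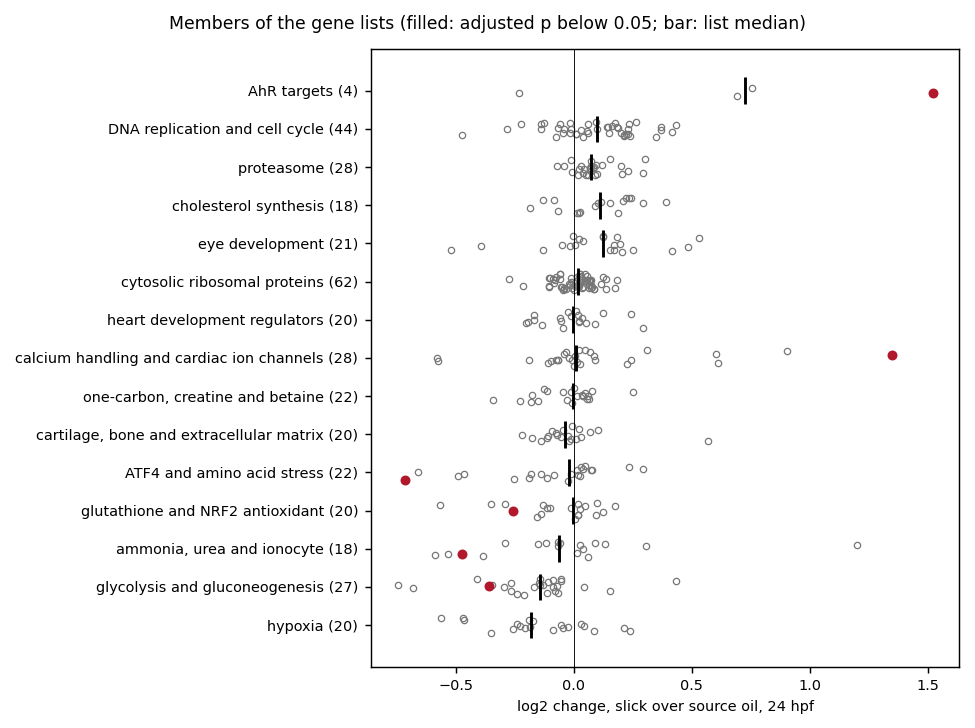
The log2 change of slick over source at 24 hpf (x axis) for each tested member of 15 gene lists (rows, number tested in parentheses). Filled points passed the test and bars are list medians, and the glycolysis and hypoxia members lie mostly left of 0 while the proteasome members lie mostly right.

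Set against the same 3 controls, slick differed in 45 genes (0.58%) and source in 131 (1.69%). These comparisons share the control samples with each other and each shares its oil samples with the comparison between the oils. Of the 14 genes lower in slick, 10 were also called higher in source than in control, as were 0.993% of all tested genes. CYLD was called lower in slick than in control, as were 0.271% of all genes, and 3, TXN and GAPDHS among them, were called in neither oil. AMD1 and CA4 were called above control in both oils (slick adjusted p = 0.019 and 0.044), by 1.18-fold and 1.27-fold in slick and by 1.36-fold and 1.76-fold in source. CHAC1 was 1.56-fold above control in source (adjusted p = 3.7e-06) and 0.951-fold in slick (adjusted p = 0.94). MPO/EPX was 1.52-fold above control in source (adjusted p = 5.7e-12) and 1.15-fold in slick (adjusted p = 0.24). KCNQ1 was 1.65-fold above control in slick (adjusted p = 0.013), and its 0.649-fold level in source did not pass (adjusted p = 0.10).

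**Figure D4:**
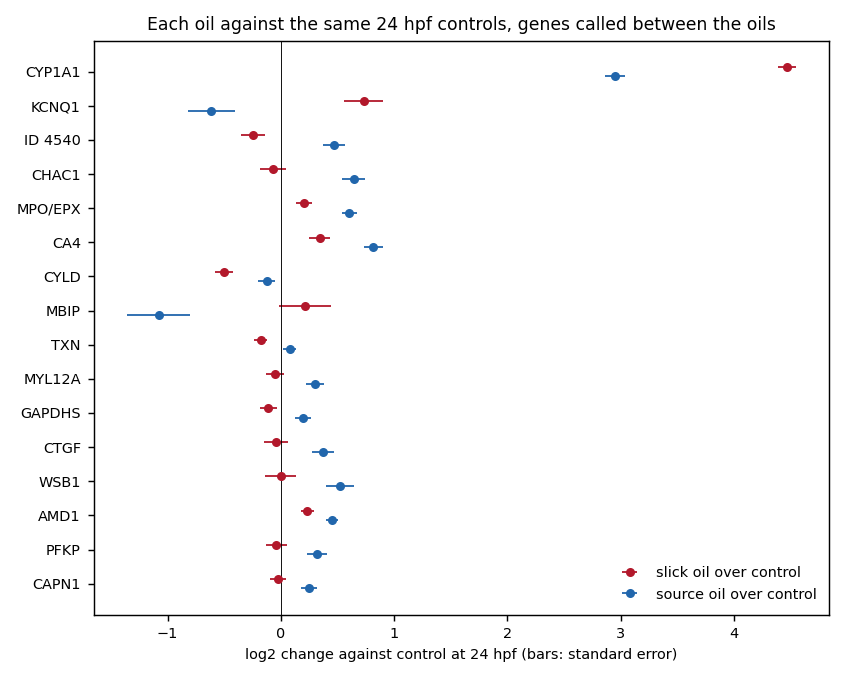
The log2 change against control (x axis, bars SE) of slick (red) and source oil (blue) at 24 hpf for 16 called genes. Source lies to the right of slick for every plotted gene called lower in slick and to the left for CYP1A1, KCNQ1 and MBIP. That order follows from the choice of genes by the difference between the oils, since both oils are set against the same controls.

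The same contrast in other samples, at 48 and 96 hpf, gave 60 called genes of 8060 (0.744%) and 1146 of 8511 (13.5%). CYP1A1 was higher in slick at both, at log2 changes of 1.56 ± 0.05 and 1.65 ± 0.06 SE. It was the only 1 of the 17 genes called at 48 hpf, where 11 of the 17 had the same sign as at 24 hpf. At 96 hpf 16 were tested, 8 had the same sign, and 6 were called in the same direction: CYP1A1, CHAC1 (-0.47), MPO/EPX (-0.71), GAPDHS (-0.46), AMD1 (-0.62) and PFKP (-0.36). TXN was called in the other direction at 96 hpf (0.35, adjusted p = 0.021). KCNQ1 had fallen to 4.94 ± 1.34 normalised counts in slick and 11.3 ± 1.64 in source at 48 hpf, a difference that did not pass there (adjusted p = 0.33), and it was below the filter at 96 hpf. A difference of the contrast between stages was called in 6 genes (0.0674%) for 48 against 24 hpf and in 458 (5.15%) for 96 against 24 hpf. These include 3 and 7 of the 17 genes, which were chosen on the 24 hpf values that enter the same test.

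**Figure D5:**
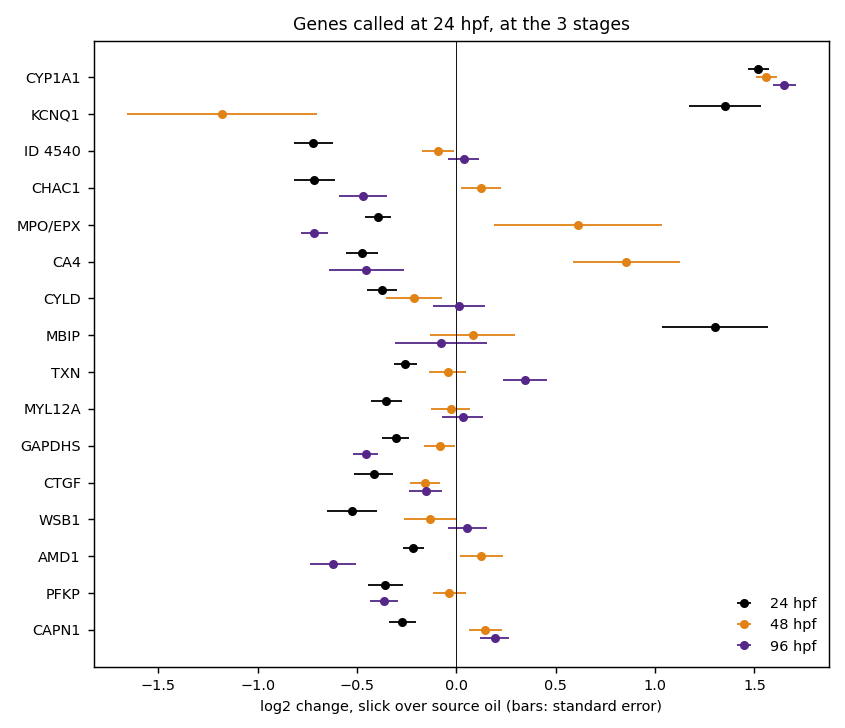
The log2 change of slick over source oil (x axis, bars SE) at 24 hpf (black), 48 hpf (orange) and 96 hpf (purple) for 16 genes called at 24 hpf. CYP1A1 lies near 1.6 at each stage, and most of the other genes lie nearer to 0 at 48 hpf.

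Between 24 and 48 hpf in embryos without oil, 25% of the 8898 genes tested over all stages rose and 22.9% fell. Of the 14 genes lower in slick, 9 fell over this interval in controls and 2, ID 4540 and CTGF, rose. These counts cannot be set against those shares as like with like. The 14 genes were called among the 7757 that passed the filter at 24 hpf, which favours genes with high counts at that stage. The falls reached log2 changes of -4.81 in MPO/EPX, -3.75 in CA4, -2.45 in AMD1 and -2.37 in CYLD. KCNQ1 fell by 1.82 and CYP1A1 rose by 0.33 (adjusted p = 0.022).

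Summed markers of 10 tissues overlapped between slick and source, for example 64600 to 68800 against 62200 to 65700 for skeletal muscle and 270 to 331 against 248 to 364 for epidermis, each with 1 or 2 of 4 markers without a line. A sum follows its most abundant marker and can hide markers that differ. In epidermis KRT8 had 58.5 in slick and 35.9 in source, and TP63 239 and 259 (adjusted p = 0.37 and 0.83). Lens markers were 41.6 to 48.4 in slick and 41.5 to 61.9 in source, against 62.3 to 79.0 in controls. The part of tissue makeup or of developmental rate in the differences was not tested.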

How the data were processed

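RNA of whole embryos or larvae, 30 pooled per replicate, was sequenced from TruSeq libraries on an Illumina HiSeq2500, per the labels' protocols and design text. The authors deposited whole-number counts for 42538 table lines keyed to human Entrez identifiers, without normalization. The submitters' processing notes name hg19, a human genome build, and the tools HTSeq and DESeq2, with no version. The sources used here do not give how fish reads were matched to those identifiers, so paralogues of a family may share or split a symbol. Tables of the authors' own tests also came with the series. Per the file headers these hold a mean signal over samples, log2 fold changes, a score and p-values, and only their gene symbols were used.

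Each identifier was read from its line of highest total (5263 identifiers had more than 1 distinct line), and identifiers with identical counts were joined. Symbols were found for 12210 of 12653 identifiers. Lines without an identifier (332) held 0.0376% to 0.0424% of the counts of the slick and source samples and were left out. The 6 samples held 6057446 to 6482261 counts over all lines, which limits the precision of low genes. At 48 and 96 hpf, in 5 pairs of control samples a chi-square test over genes found no difference past its p threshold of 0.001 (lowest p 0.021), so each pair was counted as 1 sample, leaving 27 libraries.

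edgeR 4.0.16 in R 4.3.3 was used with TMM scaling, filterByExpr and a two-sided quasi-likelihood F-test over the 9 libraries of a stage (6 residual degrees of freedom, biological coefficient of variation 3.82% at 24 hpf), and over all 27 libraries for differences between stages and for controls between stages. A call is a Benjamini-Hochberg adjusted p below 0.05 over all tested genes. The method was tried on simulated counts, drawn with independent libraries and the same spread for every gene. That simulation does not bear on the dependence of calls on single libraries or on technical spread. Named are all called genes, the 15 next by p, CYP1A1, CYP1B1 (not tested), AHRR and FOXQ1, and up to 3 members with the lowest p per list. Further members and markers named in the text (LPCAT2, KCNQ5, ATF4, GAPDH, G6PC, FBP1, FBP2, GPI, PGD, PRDX1, SRM, VEGFA, ASTL, FOXI1, SLC4A4, ASS1, SLC14A2, SLC7A1, COL2A1, KRT8 and TP63) and groupings of lists were chosen after their values were seen. Some genes that this rule names are counted but not reported here. Members, 39 gene lists and tests were chosen with earlier results of these data known. Alternatives were RLE scaling, DESeq2 1.42.0, other filters and line choices, other sets of libraries, and leaving out each library. Nothing says that replicates come from separate spawns, so p-values may measure technical spread.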

Additional observations from a re-analysis of the deposited data

Results flagged for a closer look

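The difference between slick and source oil itself differed between stages, by an interaction test in edgeR over all 27 libraries, for 48 hpf in 3 and for 96 hpf in 7 of the 17 genes called at 24 hpf, of which 1 is not described. Because the genes were chosen on their 24 hpf values, a smaller difference at other stages is partly built into this test.

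From 24 to 48 hpf the log2 change of slick over source moved by -2.53 in KCNQ1 (adjusted p = 0.02), from 1.35 to -1.18 at a much lower level. It moved by 0.829 in CHAC1 (adjusted p = 0.0047) and by 1.32 in CA4 (adjusted p = 0.02), both of which were below 0 at 24 hpf and above 0, without passing the test, at 48 hpf.

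From 24 to 96 hpf it moved by 0.724 in ID 4540, by 0.546 in WSB1 and by 0.434 in CAPN1, all lower in slick at 24 hpf and not called at 96 hpf. It moved by 0.571 in TXN, which was called lower in slick at 24 hpf and higher at 96 hpf. It moved by -1.41 in MBIP, which was higher in slick at 24 hpf and had nearly equal levels at 96 hpf (33.2 in slick, 35.1 in source). In AMD1 it moved by -0.436, to a larger difference in the same direction.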

How the results depend on the processing

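None of the 17 called genes and 17 others, those nearest the threshold with AHRR and FOXQ1, changed sign under any alternative tried. CYP1A1, KCNQ1 and CHAC1 kept their calls in every alternative tried, and these with ID 4540 in every fit that left out 1 library. Of 288 values of the 17 called genes under alternatives, 78 lost the call. Of 289 values of the 17 others, 29 passed, in 8 genes. The count of 17 calls between the oils was 6 with DESeq2, 3 with the table lines of a gene summed and 10 with all stages in one fit. Leaving out 1 library gave 4 to 21: 4 without source replicate 11, and 11 without slick replicate 3 or source replicate 10.

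The 45 calls of slick against control were 6 with lines summed and 16 to 48 with 1 library left out, being 16 without slick replicate 1 or 2 and 21, 26 and 24 without control replicates 1, 2 and 3. The 131 of source against control were 83 with DESeq2, 44 with lines summed and 53 to 152 with 1 library left out (53 without control replicate 3, 54 without source replicate 11). The 60 calls at 48 hpf were 37 with DESeq2, 110 without a filter on low counts, 27 with lines summed and 33 to 116 with 1 library left out (116 without slick replicate 4, and 33, 39 and 36 without source replicates 13, 14 and 15). The 1146 at 96 hpf were 675 with DESeq2 and 866 to 1133 with 1 library left out. The 6 for the difference between 48 and 24 hpf were 14 without a filter and 2 to 15 with 1 library left out (2 without source replicate 11, 15 without slick replicate 4, 3 without slick replicate 6 or source replicate 13). The cause of these changes was not tested.

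Slick and source share no replicate numbers. Slick and control do, but same-numbered samples did not deviate together (correlations of 0.026, -0.011 and 0.034), so that a replicate block, which gave 71 calls of slick against control against 44 in the same 6 libraries without it (an alternative chosen after seeing the data), rests on numbers only. Counts near 10 per library limit AHRR and RHAG.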
